A study of Mus musculus with 6 samples.

Results

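The 9 genes described here, Gja5, Gja4, Sox17, Bmx, Efnb2, Dll4, Hey1, Cxcl12 and Dkk2, were chosen by name as arterial endothelial genes, out of 49568 rows of the deposited expression table. All 9 were found in the table, and all 9 passed the filter on low values (10 or more normalized counts in 3 or more libraries), which left 16879 genes. The lungs came from Col6a1-/- mice and from wildtype mice of the strain C57BL/6, all 6 weeks of age. Col6a1 encodes a chain of collagen VI, a microfibrillar collagen of the space beside basement membranes. The labels do not describe the allele further. Frozen right lobes, taken after the lung vessels had been flushed, gave 3 RNA-seq libraries for each genotype, and each library held RNA of 2 animals. The pools of each genotype came from separate animals.

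Arterial endothelial cells line the vessels that carry blood into a tissue. They are told apart from venous and capillary endothelium by a small set of genes: connexins that join neighbouring cells through gap junctions, transcription factors of the SoxF and Hey families, ligands of the Notch and ephrin pathways, and a few secreted factors. In mouse embryos the Notch ligand Dll4 and the factor Sox17 act high in the arterial programme, and Hey1 and Efnb2 are among the genes that follow Notch activity. In the lung these genes mark the pulmonary arteries and the arterioles that feed the capillary bed, and several of them are also read in other cells.

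Libraries held 28055414 to 37904878 reads in genes. Col6a1 was lower in each Col6a1-/- library than in each wildtype library, with a mean of 9998 ± 637 normalized counts against 20210.3 ± 1986 (SD, n = 3 pools each). The sex of the animals was not in the labels, and the pools differed in it. The level of 4 Y-linked genes, set to 100% in the highest library, was 73.6%, 100% and 51.6% in Col6a1-/- pools 1 to 3, against 0.299%, 3.42% and 50.6% in wildtype pools 1 to 3. Both Y-linked RNA and Xist were high in Col6a1-/- replicates 1 and 3 and in wildtype replicate 3, called pools of mixed sex here. Values from these 3 pools alone, which carry no test, are given for each member. Each is the mean log2 level of Col6a1-/- replicates 1 and 3 minus that of wildtype replicate 3, so it rests on 1 wildtype library. The Y-linked level, used below as the male share, partly followed genotype, so a fit with it as a covariate cannot separate sex from genotype well. In that limma fit 0 of 16879 tested genes passed an adjusted p of 0.05, and Col6a1 was not called either. Below, the values of a genotype's 3 pools are listed by replicate number, from 1 to 3. The labelled tissue was checked with 8 epithelial genes of the lung, and the surfactant gene Sftpc had 443498 to 583425 normalized counts in Col6a1-/- libraries and 478684 to 553122 in wildtype libraries. All 15 pan-endothelial genes were detected in every library.

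Promoter sequence was held for 7 of the 9 genes in the RefSeq promoter table of GRCm38.p6, which spans 250 bases before to 50 bases after a start site. Sox17 and Hey1 were not among them. The promoters of the connexin genes Gja5 and Gja4 and of the kinase gene Bmx are shown. The estimates of these genes differed in sign or in the overlap of the libraries, and differences between the genes were not tested. Any link between promoter sequence and level was not tested. These promoters lie at chr3:97032152-97032451 on the plus strand, at chr4:127313990-127314289 on the minus strand and at chrX:164258144-164258443 on the minus strand. Each is written 5′ to 3′, and capitals mark the letters TGGGAA, the core bound by the Notch effector RBPJ, and CAGGAA, a core bound by ETS factors, on either strand.
Gja5: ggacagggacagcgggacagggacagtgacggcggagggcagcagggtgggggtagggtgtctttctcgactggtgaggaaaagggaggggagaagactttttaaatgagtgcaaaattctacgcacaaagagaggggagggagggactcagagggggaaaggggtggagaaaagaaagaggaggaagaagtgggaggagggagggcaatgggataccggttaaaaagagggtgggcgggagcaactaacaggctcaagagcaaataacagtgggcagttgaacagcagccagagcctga
Gja4: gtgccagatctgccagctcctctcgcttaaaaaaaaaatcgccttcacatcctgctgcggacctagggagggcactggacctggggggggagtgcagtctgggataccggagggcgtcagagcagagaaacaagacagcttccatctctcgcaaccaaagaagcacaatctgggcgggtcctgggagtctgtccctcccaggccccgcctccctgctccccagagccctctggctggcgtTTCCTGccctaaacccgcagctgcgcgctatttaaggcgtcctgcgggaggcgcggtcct
Bmx: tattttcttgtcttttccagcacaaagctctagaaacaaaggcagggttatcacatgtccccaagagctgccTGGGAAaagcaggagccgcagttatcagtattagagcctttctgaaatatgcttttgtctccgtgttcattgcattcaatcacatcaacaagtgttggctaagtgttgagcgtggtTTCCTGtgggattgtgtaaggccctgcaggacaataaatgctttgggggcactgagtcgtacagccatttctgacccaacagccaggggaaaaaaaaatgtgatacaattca

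The window of Gja5 held neither set of letters, that of Gja4 held CAGGAA, and that of Bmx held both. The Gja5 window lies inside the gene span given below, away from its beginning, so any start further upstream was not read. Among the 7 promoters, TGGGAA stood in 2 (Bmx and Cxcl12) and CAGGAA in 2 (Gja4 and Bmx). Of 32851 promoter windows of the same length in the table, 25.6% held TGGGAA and 30.6% held CAGGAA. The SOX core AACAAT was in none of the 7 and in 10.7% of all windows.

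The arterial genes did not move as a block between the genotypes. Sox17 was higher and Gja5 lower in every Col6a1-/- library than in any wildtype library, Bmx was slightly higher, and the other 6 genes overlapped between the genotypes. None of the 9 passed the threshold of 0.05 in limma (Benjamini-Hochberg adjusted over the 16879 genes), where 0.0652% of genes passed (0.0178% higher and 0.0474% lower), and 3 of the 9 had an unadjusted p under 0.05, against 20.3% of all tested genes. edgeR on the recovered reads called 0 of the 9 and 0.077% of all genes. In the authors' deposited table, made with DESeq2, 2 of the 8 members with an adjusted p passed, Sox17 higher and Gja5 lower, where 5.05% of 14679 genes passed (1.87% higher and 3.18% lower). DESeq2 on the recovered reads called 2 of the 8 members with an adjusted p, and 5.06% of the 14672 genes with one. Col6a1-/- and wildtype pools stood apart for 24.9% of all tested genes (10.7% higher and 14.2% lower in Col6a1-/-), beside 2 higher and 1 lower of the 9 members. Library quality weights called 3 members and 19.1% of genes, removal of the trend on transcript length and GC called 1 and 0.493%, and leaving out wildtype replicate 3 called 2 and 8.26%. The median log2 fold change of the members was 0.05, beside 0.0098 over all tested genes, with 5 member estimates above 0 and 4 below. Over all tested genes 8720 estimates were above 0 and 8159 below. Fold changes are Col6a1-/- over wildtype on the scale of log2(normalized count + 1).

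**Figure D1:**
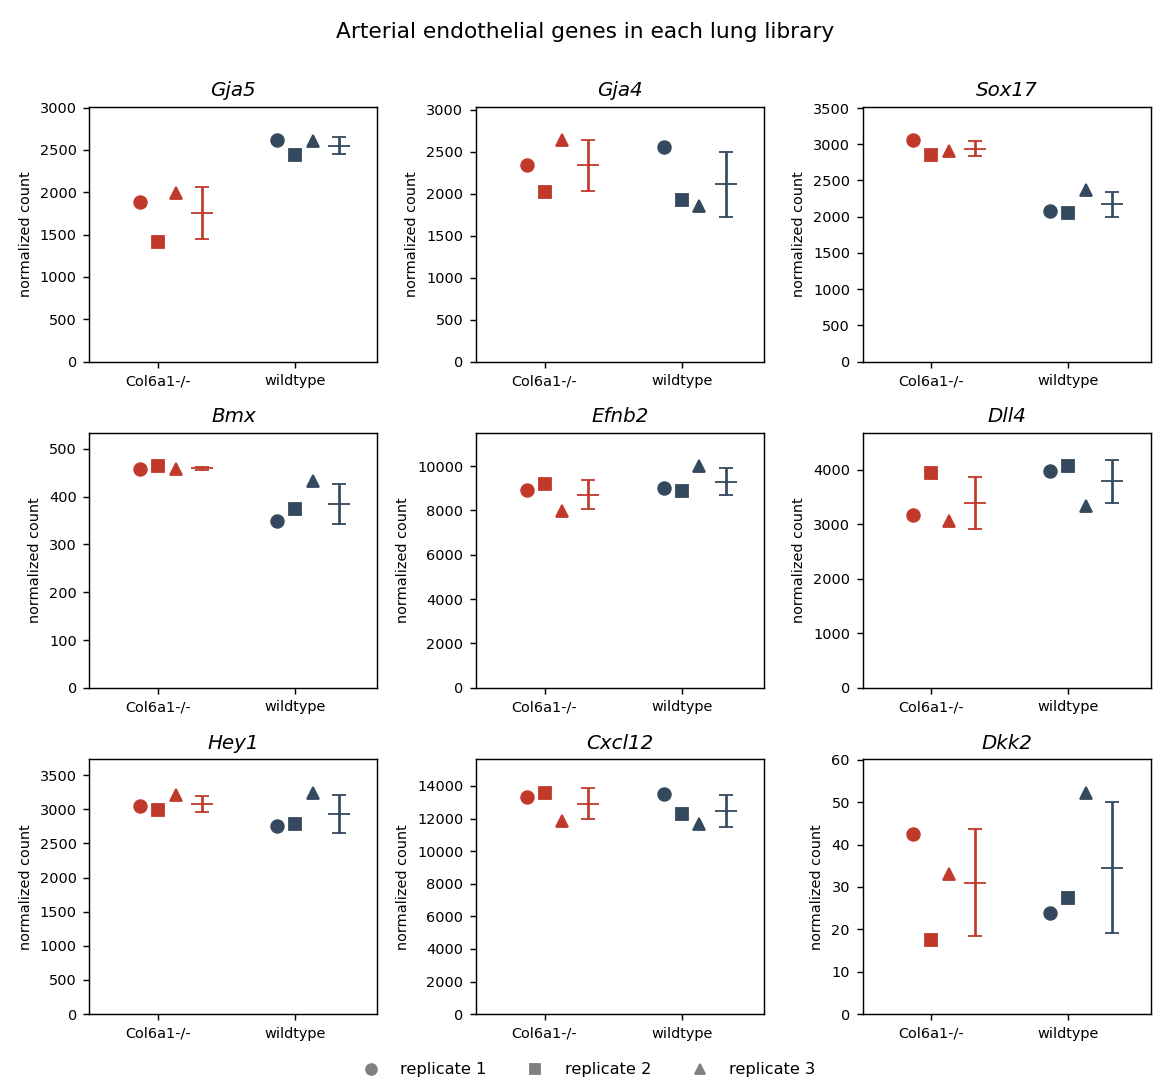
Normalized counts of the 9 arterial genes, 1 panel a gene, in Col6a1-/- (red) and wildtype (dark) libraries; symbols stand for replicates 1 to 3, and the bar beside them for mean and SD. Sox17 lay between 2853 and 3059 in Col6a1-/- libraries and between 2056 and 2371 in wildtype libraries, and Gja5 between 1408 and 1985 in Col6a1-/- and between 2437 and 2617 in wildtype libraries.

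Gja5 encodes connexin 40, the gap junction protein of arterial endothelium and also of atrial heart muscle (ENSMUSG00000057123.14, chromosome 3, 96904693 to 97077416, plus strand, GRCm38). Gja5 stood at 1880.2, 1408 and 1985 normalized counts in the Col6a1-/- pools, against 2617, 2437 and 2601 in the wildtype pools. All 3 Col6a1-/- libraries lay below the lowest wildtype library, and Col6a1-/- replicate 2, the pool with the highest Y-linked level, was the lowest of all. Col6a1-/- pools averaged 1758 ± 307 and wildtype pools 2552 ± 99.7 (SD, n = 3), so that the Col6a1-/- mean was 68.9% of wildtype. This is a log2 fold change of -0.55 (SE 0.12, 95% interval -0.83 to -0.28, limma adjusted p 0.0939). The authors' deposited table gave -0.47 with an adjusted p of 0.00556. DESeq2 on recovered reads gave -0.54 at nearly the same adjusted p, 0.00555, so the deposited fold changes are on a smaller scale. Without Col6a1-/- replicate 2 the limma estimate was -0.40 with an adjusted p of 0.0862. In the pools of mixed sex alone the difference was -0.43. The limma estimate with the male share as a covariate was -0.33 with an adjusted p of 0.703.

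Because connexin 40 is also made by atrial muscle, which surrounds the pulmonary veins in mice, markers of those cells were read in the same libraries. Of these markers, 9 of 10 atrial and pulmonary vein cardiomyocyte genes had higher estimates in Col6a1-/- lungs, and the summed level was 25069.9 to 27175 normalized counts in Col6a1-/- libraries and 18463 to 24701 in wildtype libraries. limma and edgeR called 0 of these 10, with 6 at an unadjusted limma p under 0.05, against 20.3% of all tested genes. The authors' deposited table called 3 of them, all higher, where it called 1.87% of all genes higher. Among these was Myl4, an atrial myosin light chain, at an adjusted p of 0.00911 in that table and 0.0939 in limma. The part of these cells in the value of Gja5 was not tested. The gene span of Gja5 also overlaps genes on the opposite strand. Of these Gpr89 had 759 to 975 normalized counts over the 6 libraries, and 9230114J08Rik had 0 to 1.04. Whether counting used strand is not stated in these sources, so reads from the overlapping stretches cannot be assigned.

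Gja4 encodes connexin 37, the partner of connexin 40 in arterial gap junctions (ENSMUSG00000050234.7, chromosome 4, 127311421 to 127314039, minus strand). It had 2346, 2024 and 2640.1 normalized counts in the Col6a1-/- pools, against 2559.9, 1924 and 1854 in the wildtype pools. The genotypes overlapped, because wildtype replicate 1 lay above Col6a1-/- replicates 1 and 2. Its estimate was 0.15 on the log2 scale (95% interval -0.15 to 0.46, SE 0.14, limma adjusted p 0.554), so that the estimates of the connexin pair had opposite signs. Mixed-sex pools alone gave 0.42 for Gja4, and the male share as a covariate gave 0.53 (unadjusted p 0.0183, limma adjusted p 0.615). With 1 library left out the estimate ran from 0.06, without Col6a1-/- replicate 3, to 0.30, without wildtype replicate 1; it was 0.25 without Col6a1-/- replicate 2, 0.09 without wildtype replicate 2 and 0.07 without wildtype replicate 3.

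Sox17 encodes a SoxF transcription factor needed for arterial identity in mouse embryos (ENSMUSG00000025902.13, chromosome 1, 4490931 to 4497354, minus strand). Sox17 stood at 3059, 2853 and 2912 normalized counts in the Col6a1-/- pools, against 2079, 2056 and 2371 in the wildtype pools. Every Col6a1-/- library was above every wildtype library, and wildtype replicate 3, the mixed-sex pool, was the wildtype library nearest to them. Col6a1-/- pools averaged 2941 ± 106 and wildtype pools 2169 ± 176 (SD, n = 3), a ratio of 1.36. In limma the log2 fold change came to 0.44 (SE 0.09, 95% interval 0.24 to 0.64, adjusted p 0.0815), and the authors' deposited table gave 0.40 with an adjusted p of 0.00377. In the mixed-sex pools alone the difference was 0.33, and with the male share as a covariate it was 0.33 with a limma adjusted p of 0.651. A transcript that overlaps Sox17 on the opposite strand, Gm37587, had at most 8.78 normalized counts.

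Dll4 encodes the Notch ligand of arterial and sprouting endothelium (ENSMUSG00000027314.6, chromosome 2, 119325784 to 119335962, plus strand). Dll4 stood at 3167, 3938 and 3062 normalized counts in the Col6a1-/- pools, against 3973, 4067 and 3330.5 in the wildtype pools. Col6a1-/- replicate 2 stood with the higher wildtype libraries, and wildtype replicate 3 stood with the lower Col6a1-/- libraries. For Dll4 the estimate was -0.16 on the log2 scale (95% interval -0.43 to 0.10, SE 0.12, limma adjusted p 0.449). The difference was -0.10 in the mixed-sex pools alone, and the limma estimate was -0.17 with the male share as a covariate. Gm14207, which overlaps Dll4 on the opposite strand, had 89.1 to 129.5 normalized counts.

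Hey1, a transcriptional repressor switched on by Notch (ENSMUSG00000040289.8, chromosome 3, 8663359 to 8667256, minus strand), had 3044, 2987 and 3207 normalized counts in the Col6a1-/- pools, against 2758, 2785 and 3245 in the wildtype pools. Wildtype replicate 3 was the highest library and the remaining wildtype libraries were the lowest. The log2 fold change was 0.08 with a 95% interval of -0.13 to 0.28 (SE 0.09, limma adjusted p 0.667), and it was -0.05 in the mixed-sex pools alone and -0.03 with the male share as a covariate.

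Efnb2 encodes ephrin-B2, the arterial surface ligand that signals to EphB4 on veins (ENSMUSG00000001300.16, chromosome 8, 8617434 to 8661242, minus strand). Efnb2 stood at 8934, 9198 and 7957 normalized counts in the Col6a1-/- pools, against 9006, 8869 and 9988 in the wildtype pools. The genotypes overlapped, and the outer values were those of replicate 3 of each genotype. This gave a log2 fold change of -0.10 (95% interval -0.30 to 0.11, SE 0.09, limma adjusted p 0.586). The difference was -0.24 in the mixed-sex pools alone. The limma estimate was -0.30 with the male share as a covariate (unadjusted p 0.0563, limma adjusted p 0.656). Unclassified genes annotated within it on the same strand had at most 75.7 normalized counts.

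Bmx encodes a Tec family kinase of arterial endothelium and of some myeloid cells (ENSMUSG00000031377.11, chromosome X, 164192842 to 164258193, minus strand). It had 457, 464 and 458 normalized counts in the Col6a1-/- pools, against 350, 373 and 432 in the wildtype pools. The Col6a1-/- libraries were close together and all above the wildtype libraries, by a narrow gap from wildtype replicate 3. Col6a1-/- pools averaged 459.6 ± 3.45 and wildtype pools 385 ± 42.2, a log2 fold change of 0.26 (SE 0.11, 95% interval 0.0082 to 0.51). The limma adjusted p was 0.234, and that of the authors' deposited table was 0.295. The difference in Bmx was 0.08 in the mixed-sex pools alone and 0.08 with the male share as a covariate (limma adjusted p 0.928); the part of sex in it was not tested. Of 8 neutrophil and monocyte genes 7 had higher estimates, none was called in the authors' deposited table or by limma, and their summed level was 2544 to 5450.2 normalized counts in Col6a1-/- libraries and 2970.3 to 3494 in wildtype libraries. Their part in the value of Bmx was not tested.

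Cxcl12 encodes the chemokine made by arterial endothelium and by many fibroblasts and pericytes (ENSMUSG00000061353.11, chromosome 6, 117168535 to 117181367, plus strand). Cxcl12 stood at 13336, 13592 and 11837 normalized counts in the Col6a1-/- pools, against 13528, 12252 and 11641 in the wildtype pools. Both genotypes spanned nearly the same range. The log2 fold change was 0.05 with a 95% interval of -0.17 to 0.27 (SE 0.10, limma adjusted p 0.796). It was 0.11 in the mixed-sex pools alone and 0.06 with the male share as a covariate.

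Dkk2, a secreted modulator of Wnt signalling through the receptors Lrp5 and Lrp6 (ENSMUSG00000028031.6, chromosome 3, 132085292 to 132180304, plus strand), was near the limit of detection. It had 42.5, 17.5 and 33.0 normalized counts in the Col6a1-/- pools, against 23.9, 27.4 and 52.3 in the wildtype pools, from 16 to 54 reads a library. Its log2 fold change of -0.15 had a 95% interval of -1.0 to 0.69 (SE 0.38, limma adjusted p 0.848). It was -0.47 in the mixed-sex pools alone and -0.37 with the male share as a covariate. DESeq2 gave it no adjusted p in the authors' deposited table.

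**Figure D2:**
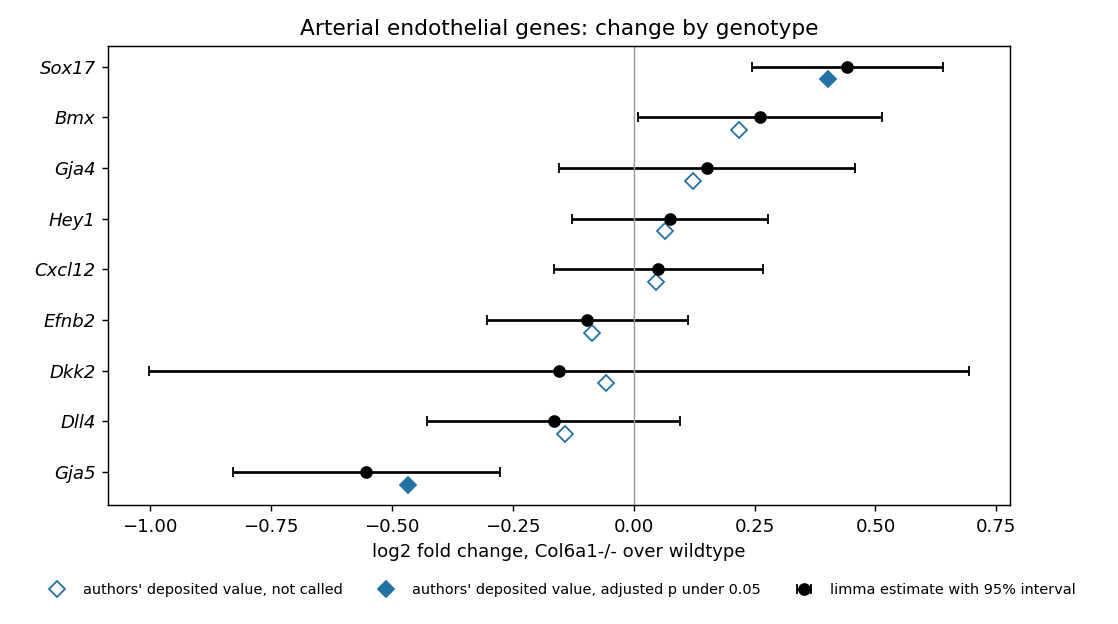
Log2 fold change of each arterial gene, Col6a1-/- over wildtype, from limma with its 95% interval (black) and from the authors' deposited table (diamonds, filled where the adjusted p was under 0.05). The intervals of Gja5, Sox17 and Bmx lay apart from 0, the filled diamonds are Gja5 at -0.47 and Sox17 at 0.40, and Dkk2 had the widest interval. Diamonds and limma estimates are not on the same scale.

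Members differed widely in abundance. Per 1000 bases of the longest annotated transcript, Cxcl12 was the most abundant, at 2296 ± 168 normalized counts in Col6a1-/- and 2217 ± 171 in wildtype lungs. Next came Efnb2 at 1814 ± 136 in Col6a1-/- and 1938 ± 127 in wildtype lungs, then Gja4 at 1387 ± 183 in Col6a1-/- and 1254 ± 231 in wildtype lungs. Hey1 had 1271 ± 47.1 in Col6a1-/- and 1209 ± 113 in wildtype lungs. Gja4 and Hey1 did not differ beyond their SDs in either genotype, nor did Cxcl12 and Efnb2, or Hey1 and Dll4, in wildtype lungs. The middle of the order differed between the genotypes, and this difference was not tested. In Col6a1-/- lungs Sox17 (907 ± 32.8) stood level with Dll4 (905 ± 128) and above Gja5 (479 ± 83.8). In wildtype lungs Dll4 (1012 ± 107) stood above Gja5 (696 ± 27.2) and Sox17 (669 ± 54.1), which did not differ beyond their SDs. Bmx followed at 153 ± 1.1 in Col6a1-/- and 128 ± 14 in wildtype lungs, and Dkk2 was lowest at 8.37 ± 3.41 in Col6a1-/- and 9.32 ± 4.18 in wildtype lungs.

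In whole lung, fewer endothelial cells and less RNA per endothelial cell cannot be told apart. The 15 pan-endothelial genes were set beside the members as a description, which does not tell them apart either. Their mean log2 level, centred over the 6 libraries, came to -0.10, -0.02 and -0.07 in the Col6a1-/- pools, against 0.11, 0.08 and -0.0040 in the wildtype pools. The sum of their normalized counts was 198268 to 204865 in Col6a1-/- and 215999 to 238582 in wildtype libraries, and 12 of 15 estimates were lower. limma called none of the 15 and edgeR none. In limma 4 had an unadjusted p under 0.05, against 20.3% of all tested genes. The authors' deposited table called 2 of them lower, where it called 3.18% of all genes lower. They were Cdh5, the cadherin of endothelial junctions (log2 fold change -0.32, adjusted p 0.0287), and Pecam1, an adhesion molecule of the same junctions (-0.27, adjusted p 0.0445).

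Sox17 and Gja5 also separated the genotypes when measured against those 15 genes in the same library. The mean of the 15 was itself lower in every Col6a1-/- library than in any wildtype library. For Sox17 and Bmx, already higher in every Col6a1-/- library, subtracting it could only widen the gap, so their outcome was fixed in advance. On that log2 scale Sox17 was 0.38, 0.19 and 0.28 in the Col6a1-/- pools, against -0.39, -0.37 and -0.09 in the wildtype pools, a difference of 0.57. Gja5 was -0.06, -0.57 and -0.01 in the Col6a1-/- pools, against 0.20, 0.13 and 0.31 in the wildtype pools, a difference of -0.43. Bmx also kept its 3 Col6a1-/- libraries above its wildtype libraries, with a difference of 0.39, and the differences of the remaining 6 genes ran from -0.04 to 0.28 with overlapping libraries. These relative levels are a description and carry no test.

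**Figure D3:**
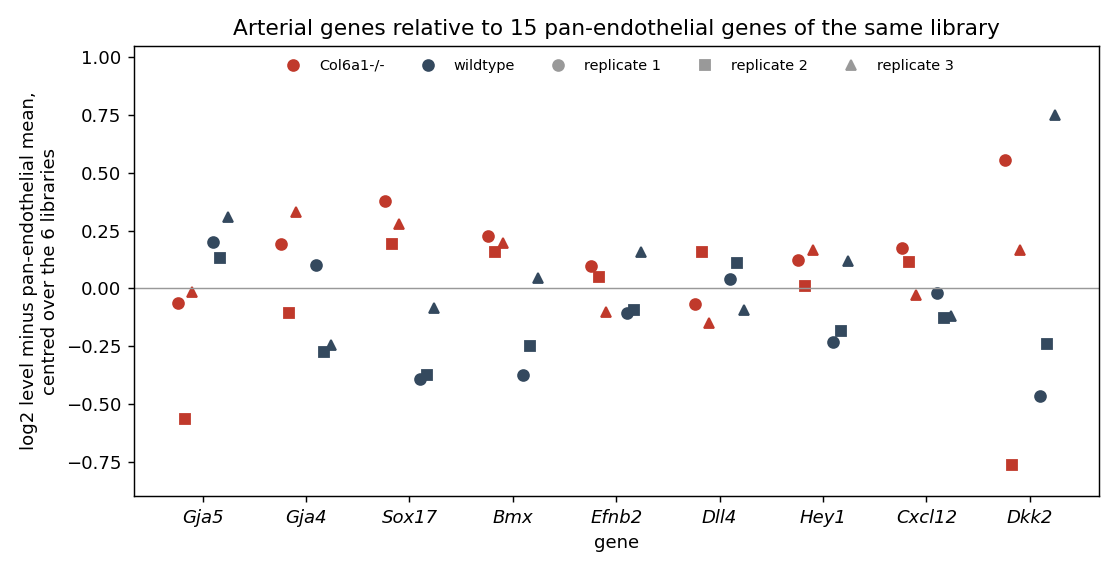
Log2 level of each arterial gene minus the mean of the 15 pan-endothelial genes of the same library, centred over the 6 libraries; red is Col6a1-/-, dark is wildtype, and symbols are replicates. Sox17 and Bmx were higher and Gja5 lower in all 3 Col6a1-/- libraries, and the points of Dkk2, with 16 to 54 reads a library, were the most scattered.

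Other endothelial compartments were read for comparison. Of 7 tested venous endothelial genes, 6 had lower estimates (median log2 fold change -0.28). The other, Nr2f2, was at 0.20 (limma adjusted p 0.255). Its Col6a1-/- libraries all lay above its wildtype libraries, as for 10.7% of all tested genes. In this list limma called 2 genes lower, Vwf, the clotting factor carrier, at an adjusted p of 0.0468, and Slc6a2, the noradrenaline transporter, at 0.0481. Both calls were lost with the filter at 50 (limma adjusted p 0.0526 for Vwf and 0.0639 for Slc6a2), the male share (0.551 and 0.149) and the replicate block (0.0536 for both). They were also lost without Col6a1-/- replicate 1 (0.0531 for Vwf and 0.0571 for Slc6a2), Col6a1-/- replicate 3 (0.276 for both), wildtype replicate 1 (0.196 and 0.181) or wildtype replicate 2 (0.249 and 0.220), with the sign kept throughout. The 9 lung capillary genes had a median of -0.02, with 1 called higher (Hpgd, an enzyme that breaks down prostaglandins, adjusted p 0.0202) and 1 lower (Plvap, a protein of endothelial diaphragms, 0.00316) in the authors' deposited table. Differences between these lists and the members were not tested. Lists of cells that share members with arteries were at a median of -0.24 for 8 smooth muscle genes, -0.08 for 6 pericyte genes and 0.07 for 9 fibroblast genes. The summed level of the smooth muscle list was 27970.2 to 29057 normalized counts in Col6a1-/- and 27821 to 36345 in wildtype libraries, and its estimates were lower for 8 of 8 genes, none called in the authors' deposited table. limma and edgeR called none of 5 red cell genes (5 at an unadjusted p under 0.05) and none of 6 fat genes (6 at an unadjusted p under 0.05). The authors' deposited table called all 5 red cell genes higher, with a summed level of 62062 to 102287 normalized counts in Col6a1-/- and 41736 to 47783 in wildtype libraries. Of 6 fat genes, all had higher estimates and 2 were called higher in the authors' deposited table, and their sums were 7321 to 11936 in Col6a1-/- and 2277 to 6070 in wildtype libraries. The part of these cells in the members' values was not tested. Beside the counts of these lists, limma called 0.0474% of all tested genes lower, and 20.3% had an unadjusted p under 0.05. The authors' deposited table called 1.87% of all genes higher and 3.18% lower. The median of the smooth muscle list changed sign to 0.13 with the male share as a covariate.

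Partners of Dll4 and Hey1 in the Notch pathway leaned lower, as did the pan-endothelial genes. Of 15 Notch genes, 12 had lower estimates in Col6a1-/- lungs, with a median log2 fold change of -0.08. The pan-endothelial list also had 12 of 15 lower, with a median of -0.17. limma called 0 of the 15, with 6 at an unadjusted p under 0.05, against 20.3% of all tested genes, and edgeR called 0. The authors' deposited table called 3 of the 15 lower and none higher, where it called 3.18% of all genes lower. They were Notch1, the main endothelial receptor (log2 fold change -0.41, adjusted p 0.0059), Dll1, a Notch ligand (-0.43, adjusted p 0.0182), and Heyl, a target gene of Notch in smooth muscle and pericytes (-0.42, adjusted p 0.00793).

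Notch1 had 6848, 6688 and 5674 normalized counts in the Col6a1-/- pools, against 9174, 9077 and 7979.6 in the wildtype pools. Heyl had 2825, 2190.1 and 2806 in the Col6a1-/- pools, against 3604, 3482 and 3739 in the wildtype pools. Neither gene overlapped between the genotypes, as was so for 14.2% of all tested genes in the lower direction. The Notch1 estimate was -0.45 in limma (adjusted p 0.0939) and -0.21 after correction for the trend on length and GC (adjusted p 0.111), and that of Heyl was -0.48 and -0.34 (adjusted p 0.0939 and 0.187). The remaining arterial ligand Jag1 and the arterial Hey2 were close to wildtype, with log2 fold changes of -0.01 (95% interval -0.22 to 0.20) and 0.08 (-0.26 to 0.41).

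The receptors of the member ligands gave 8 lower estimates of 10, with a median of -0.16 (limma called 0, with 3 at an unadjusted p under 0.05, and edgeR called 0). Over all tested genes 20.3% had an unadjusted limma p under 0.05, and the authors' deposited table called 3.18% lower. Lrp5, a Wnt co-receptor bound by Dkk proteins, was the gene called in the authors' deposited table, at a log2 fold change of -0.40 and an adjusted p of 0.00599. It had 5654, 5529 and 4661 normalized counts in the Col6a1-/- pools, against 7597, 7254 and 6704 in the wildtype pools. Its limma estimate was -0.45, and -0.21 with the trend on length and GC removed. Ephb4, the receptor gene for ephrin-B2, and the Cxcl12 receptor gene Cxcr4 were at -0.13 and -0.03 on the log2 scale, with limma adjusted p of 0.487 and 0.863.

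None of the 6 tested connexin genes beside the members was called by limma, by edgeR or in the authors' deposited table, and none had an unadjusted p under 0.05. The smallest p was that of Gjb1, a connexin of epithelial cells, with a log2 fold change of -0.58 (95% interval -1.31 to 0.15). Gja1, the widely expressed connexin 43, was at 0.09 on the log2 scale. The SoxF and ETS list, which also held the forkhead genes Foxc1, Foxc2 and Foxf1, behaved likewise. In it limma, edgeR and the authors' deposited table called none of the 8 tested genes, and none had an unadjusted p under 0.05. The genes of smallest p in that list were Fli1 at -0.14, Ets1 at -0.11 and the SoxF gene Sox7 at -0.12 on the log2 scale. Sox18, the remaining SoxF gene, was at -0.06 (95% interval -0.33 to 0.22), beside 0.44 for Sox17. Under the male share covariate Sox7 and Sox18 turned to the other sign within ranges over all alternatives of -0.25 to 0.12 and -0.16 to 0.32.

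Among 16 tested genes of a wider arterial list, 5 estimates were higher and 11 lower, with a median of -0.09. limma and edgeR called 0 of them, with 7 at an unadjusted limma p under 0.05, against 20.3% of all tested genes. The authors' deposited table called 2 higher and 1 lower, where it called 1.87% of all genes higher and 3.18% lower. Edn1, the vasoconstrictor endothelin-1, had 1166, 1206 and 1181 normalized counts in the Col6a1-/- pools, against 885, 882 and 949 in the wildtype pools (authors' adjusted p 0.0176 in their deposited table). Nrp1, a co-receptor for VEGF and semaphorins, had 9737, 8666 and 7648 in the Col6a1-/- pools, against 12090.3, 11729 and 11235.5 in the wildtype pools (adjusted p 0.00911 in the authors' deposited table). Tspan8, a tetraspanin that epithelial cells also make, had an adjusted p of 0.0254 there, and its limma log2 fold change of 0.41 was 0.10 with the trend on length and GC removed. None of these genes overlapped between the genotypes, as was so for 24.9% of all tested genes in either direction.

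**Figure D4:**
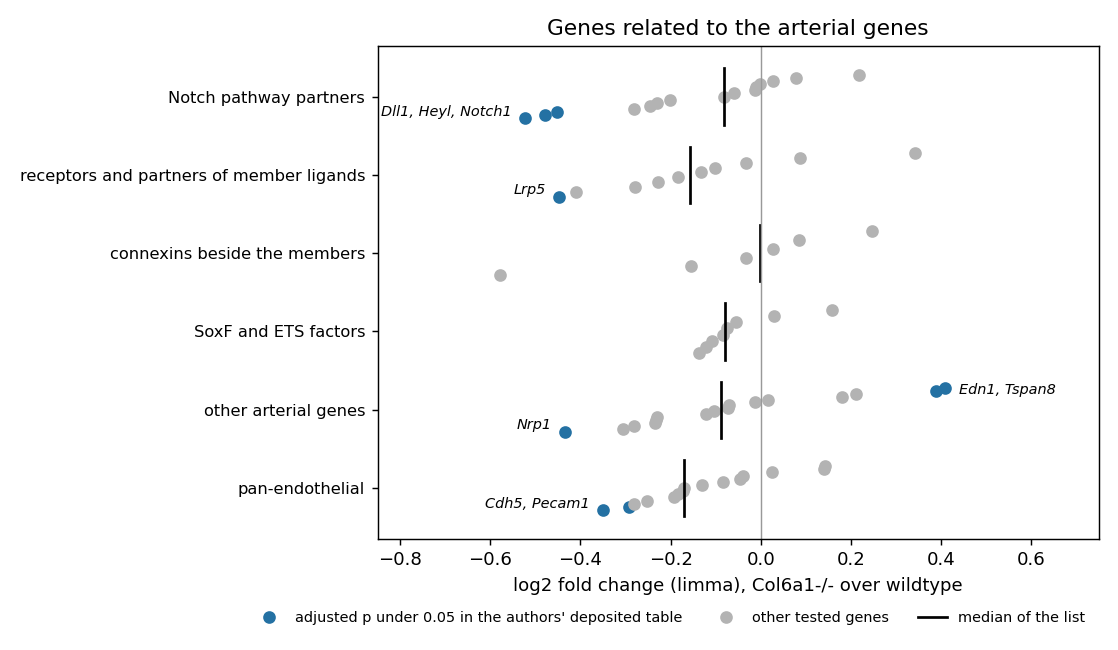
Limma log2 fold change, Col6a1-/- over wildtype, of the tested genes in 5 lists related to the arterial genes and in the pan-endothelial list; blue points had an adjusted p under 0.05 in the authors' deposited table and are named, and black lines are list medians. Called genes lay lower in the Notch, receptor and pan-endothelial lists and on both sides in the wider arterial list.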

How the data were processed

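RNA of pooled lungs was sequenced in 6 libraries, 3 per genotype. Per the submitters' processing notes, which give no roles, the tools were DESeq2 1.16.1 in R 3.4.1, featureCounts of Subread 1.5.0p3, STAR 2.5.2b and Trimmomatic 0.36, on GRCm38.p5. The deposited signal is the authors' normalized count per gene, and 100% of values in each library were whole reads divided by 1 size factor (tolerance 0.001). In Col6a1-/- replicate 3 that factor was 1.0003, too close to 1 to test this from the steps alone. The authors' deposited table held a log2 fold change, a p-value, its adjusted value, and a mean and a test statistic that count as a score. For each member the deposited fold change was smaller in size than that of DESeq2 on recovered reads (Sox17 0.40 against 0.44). Deposited and limma fold changes are therefore not the same measure, and their sizes should not be compared.

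Genotypes were compared on log2(normalized count + 1) by a two-sided limma-trend fit (R 4.3.3, limma 3.58.1), with no covariates, Benjamini-Hochberg adjustment over 16879 genes and a threshold of 0.05, fitted on all tested genes. The fit was tested on simulated independent counts, without differences in sex or quality between libraries. That test therefore does not cover those traits of these data. edgeR 4.0.16 and DESeq2 1.42.0 on recovered reads were alternatives. SDs are over 3 pools. Recovered reads carry no molecular identifiers, so read counts give counting precision only. Positions and transcript lengths came from GENCODE M21 on GRCm38, where 95.3% of rows matched by symbol.

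The members and gene lists were chosen with earlier results of these data known. Some lists share genes (Erg, Jag1, Ephb4 and Notch3), so the counts of the lists are not independent of each other. From each list the text names genes past a threshold, or else those of smallest p, with some items not reported here; Jag1, Hey2, Sox18, Ephb4, Cxcr4 and the marker genes were named after their values were seen. Male share was the mean of the Y-linked genes Ddx3y, Eif2s3y, Kdm5d and Uty relative to the highest library. The comparison of mixed-sex pools alone was chosen after seeing the data.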

Additional observations from a re-analysis of the deposited data

How the results depend on the processing

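Over 18 alternatives Gja5 kept a negative sign (-0.65 to -0.33) and Sox17 a positive one (0.33 to 0.51), while their calls depended on the model and on single libraries. Gja5 and Sox17 passed in DESeq2 on recovered reads (adjusted p 0.00555 and 0.00376), with library quality weights (0.0103 and 0.00421) and without wildtype replicate 3 (0.0436 and 0.0112), and Sox17 passed with the length and GC trend removed (0.0474). Bmx passed with library quality weights (0.0465). Members past the threshold numbered 0 in limma, 3 with quality weights, 1 with the length and GC trend removed, 2 in DESeq2 and 0 to 2 with 1 library left out. Over all genes 11 passed, against 93 with no filter on low values, 7 with a filter at 50, 26 with median centring, 30 with robust moderation, 3225 with quality weights, 0 with the male share (1298 at an unadjusted p under 0.05), 81 with the length and GC trend removed, 742 in DESeq2 and 0 to 1383 with 1 library left out (0 without wildtype replicate 1 or Col6a1-/- replicate 3, 2 without wildtype replicate 2, 47 without Col6a1-/- replicate 2, 1383 without wildtype replicate 3). The members' median was 0.14 with quality weights, -0.055 in the mixed-sex pools, -0.027 with the male share and 0.03 to 0.10 with 1 library left out. Signs turned for Cxcl12 (-0.00065) and Dkk2 (0.18) with quality weights, Hey1 (-0.027) with the male share, Efnb2 (0.033) with the length and GC trend removed, and Dkk2 without a library (-0.42 to 0.20). The causes were not tested.

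Replicate numbers did not pair the libraries, with correlations of -0.14, 0.11 and -0.0059 between same-numbered libraries; with the replicate number as a block 7 genes passed and 0 members, and Gja5 and Sox17 had limma adjusted p of 0.073 and 0.0895. Dkk2, with 16 to 54 reads a library, was limited by depth, and it was not tested with the filter at 50.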

Other observations

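Ratios within a library remove any scale shared by its genes, and these were chosen after the values were seen, so they carry no test. They are not corrected for transcript length and give no order of abundance between genes. Normalized counts of Gja4 over those of Gja5 were 1.25, 1.44 and 1.33 in Col6a1-/- pools 1 to 3, against 0.978, 0.79 and 0.713 in wildtype pools 1 to 3. The same ratio for Gja1 over Gja5 was 1.47, 1.64 and 1.34 in Col6a1-/- libraries and 0.884, 0.864 and 1.12 in wildtype libraries. Sox17 over Gja5 was 1.63, 2.03 and 1.47 in Col6a1-/- libraries and 0.794, 0.844 and 0.911 in wildtype libraries.

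The mean profile of the 9 members was nearly flat, with a range of 0.19 on the log2 scale over the 6 libraries. Each member had equal weight in it, and Dkk2, with 16 to 54 reads a library, had a range of 1.53. Counting noise of Dkk2 therefore enters the profile and the differences from it, and its share was not tested. Hey1 was the member nearest to it (root mean square difference 0.07) and Dkk2 (0.44) and Gja5 (0.30) the farthest. Of 13180 other genes with a mean of at least 50 normalized counts, the 5 nearest to that profile were Pip4k2a, Skap2, Prkar1a, Stat4 and Slc1a3, with differences of 0.018 to 0.024 over 6 libraries.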
